A study of Homo sapiens with 19 samples.

Results

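EP400 peaks at H3K4me1 sites are the regions where EP400, the motor subunit of a chromatin remodeller it shares with the acetyltransferase TIP60, was found on a stretch of chromatin that also carried monomethylated lysine 4 of histone H3. The cells were U2OS, an established human osteosarcoma cell line. Members were chosen by overlap: a peak of the deposited EP400 list was taken if it shared 1 bp or more with a peak of the H3K4me1 list from mock cells, so the EP400 and H3K4me1 lists selected the regions and their overlap is not a finding. Of 18048 EP400 peaks, 1336 (7.40%) met this rule, and they lay in 1315 of 49665 H3K4me1 peaks (2.65%). The smallest overlap was 50 bp, and 1104 members (82.6%) lay wholly inside an H3K4me1 peak. The members were split by overlap with the H3K18ac list of mock cells into 860 with H3K18ac and 476 without.

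Mock cells received siRNA against GFP and knockdown cells received siRNA against EP400, and both were harvested 72 hr later. The histone variants H3.3 and H2AZ, Pol II and MED26 were each immunoprecipitated in both conditions, H3K4me1 and H3K18ac in mock cells, and RNA was sequenced in both conditions, with 1 library each. EP400 itself came from 3 immunoprecipitations with 3 inputs, whose siRNA condition the sample titles do not give, and these arrived as 1 list. With 1 library per antibody and condition there is no replicate error and no test. The lists give positions without a score or read count, so the depth behind a peak is unknown, and a lower share after EP400 siRNA cannot be told apart from a library with fewer listed peaks. Intervals are Wilson 95% intervals and cover counting error only. Labelled osteosarcoma cells were checked against mesenchymal markers, of which 10 of 12 reached 1 FPKM in mock cells (FPKM, the authors' RNA level per transcript length and sequenced fragments). VIM stood at 618 FPKM and COL1A1 at 376 FPKM, whereas TWIST1 was listed at 0 and COL1A2 was at 0.0114 FPKM. Of 6 epithelial markers 3 (KRT8, KRT18 and CLDN4) reached 1 FPKM, and of 11 blood, endothelial and neural markers none did. EP400 mRNA was at 10.04 FPKM in mock cells (the authors' limits 0.165 to 19.9) and 2.28 FPKM after EP400 siRNA (0.162 to 4.41).

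H3K4me1 marks enhancers and the flanks of promoters, and acetylation of H3 at lysine 18, placed by p300 and CBP, marks those that are active. H3.3 is a histone H3 variant deposited outside DNA replication at promoters, enhancers and transcribed genes, and H2A.Z is the H2A variant found beside nucleosome-depleted regulatory DNA. The TIP60-EP400 complex exchanges histone variants and acetylates chromatin. MED26 is a subunit of Mediator, the complex that links enhancer-bound factors to RNA polymerase II (Pol II).

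No hg19 genome was used, so the bases under the peaks were not read. Of 84 members at the start end of a single-gene locus, 4 reached the 250 bases before the start, and CDC16 is the only gene shown here among those. The promoters of CDC16 and of 3 named genes with a member farther before the start are given from RefSeq (GRCh38.p14), as the 250 bases before the gene start. They are shown because their genes differ in RNA and in what was listed at the member, and capitals mark each CG pair, the dinucleotide whose density separates broad CpG promoters from others. The CDC16 window is chr13:114234647-114234896 on the plus strand, that of GIT1 is chr17:29589649-29589898 on the minus strand, that of BCAM is chr19:44808809-44809058 on the plus strand and that of ANKRD1 is chr10:90921088-90921337 on the minus strand.
CDC16: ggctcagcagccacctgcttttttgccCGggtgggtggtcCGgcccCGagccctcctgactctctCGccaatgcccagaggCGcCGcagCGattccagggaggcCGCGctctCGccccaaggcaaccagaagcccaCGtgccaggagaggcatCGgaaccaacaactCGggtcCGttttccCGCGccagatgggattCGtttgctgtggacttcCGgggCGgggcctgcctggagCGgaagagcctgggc
GIT1: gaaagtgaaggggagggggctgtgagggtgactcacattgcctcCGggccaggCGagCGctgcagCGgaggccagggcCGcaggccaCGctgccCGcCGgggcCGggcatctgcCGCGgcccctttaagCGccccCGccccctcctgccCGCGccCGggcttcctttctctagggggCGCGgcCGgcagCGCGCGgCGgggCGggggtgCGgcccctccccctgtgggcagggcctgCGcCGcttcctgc
BCAM: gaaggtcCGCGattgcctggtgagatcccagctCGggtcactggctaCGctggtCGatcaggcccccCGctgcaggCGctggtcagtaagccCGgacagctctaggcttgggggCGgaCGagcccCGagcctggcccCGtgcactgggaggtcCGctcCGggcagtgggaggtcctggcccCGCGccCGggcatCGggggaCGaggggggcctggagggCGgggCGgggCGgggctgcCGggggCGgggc
ANKRD1: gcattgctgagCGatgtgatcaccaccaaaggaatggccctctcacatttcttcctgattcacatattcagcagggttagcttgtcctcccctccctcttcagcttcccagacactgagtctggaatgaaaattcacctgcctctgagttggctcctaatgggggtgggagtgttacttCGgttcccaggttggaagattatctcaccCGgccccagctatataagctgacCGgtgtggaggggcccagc

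The windows held 20 CG pairs for CDC16, 27 for GIT1, 24 for BCAM and 4 for ANKRD1, beside a median of 11 over 27305 promoters of the table (quartiles 3 and 23). The AP-1 motif TGANTCA, searched on both strands, had 1 occurrence each in the GIT1 and ANKRD1 windows and was found in 6.60% of all windows. The ETS core CCGGAAG, also searched on both strands, had 1 occurrence in the CDC16 window and was found in 8.82% of all windows.

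CDC16, a subunit of the anaphase-promoting complex, had a 400 bp member on its start (chr13:115000151-115000550, hg19), without H3K18ac. H2AZ, Pol II and MED26 were listed there in mock cells, Pol II and MED26 also after EP400 siRNA, and H3.3 in neither. CDC16 RNA was 7.49 FPKM with mock siRNA and 16.3 FPKM with EP400 siRNA. At GIT1, which encodes a GTPase-activating adaptor of focal adhesions, the member was centred at -915 bp from the start (chr17:27917451-27917600) and had H3K18ac. H3.3 and H2AZ were listed there in mock cells together with Pol II and MED26, and MED26 alone after EP400 siRNA, and GIT1 RNA was 97.5 and 35.4 FPKM. The member centred at -841 bp from BCAM, a laminin receptor gene, carried H3.3 and Pol II in mock cells and none of the 4 after EP400 siRNA. The member centred at -743 bp from ANKRD1, a YAP-responsive muscle and stress gene, carried none of the 4 in either condition.

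H3.3 was the protein listed at the most members in mock cells. It was listed at 422 members (31.6%, 29.15 to 34.1) after mock siRNA and at 168 (12.6%, 10.9 to 14.5) after EP400 siRNA. H2AZ was listed at 198 (14.8%) and 33 (2.47%), Pol II at 163 (12.2%) and 43 (3.22%), and MED26 at 148 (11.1%) and 61 (4.57%). In mock cells 629 members (47.1%) overlapped at least 1 of these 4 proteins, and after EP400 siRNA 261 (19.5%) did. Over all 18048 EP400 peaks the shares after mock and EP400 siRNA were 10.44% and 3.829% for H3.3 and 17.44% and 6.582% for H2AZ. They were 25.49% and 19.4% for Pol II, 22.1% and 17.7% for MED26, and 35.91% and 27.51% for at least 1 protein. At members H3.3 was thus above the share of all EP400 peaks in both conditions, and H2AZ, Pol II and MED26 were below it. Against the 12529 EP400 peaks with neither H3K4me1 nor H3K18ac the order differed. Of those, 7.58% carried H2AZ in mock cells, 9.36% Pol II and 6.91% MED26, all lower than at members. After EP400 siRNA their values were 2.79%, 5.79% and 5.38%, all higher than at members. Of these 3, only the Pol II value lay outside the interval of the members. The lists themselves differed in length. The number of H3.3 peaks in the EP400 siRNA list was 51.9% of that in the mock list, and for H2AZ it was 45.7%. The Pol II list was 68.2% as long and the MED26 list 90.2%. At the members the corresponding ratios of overlapped regions were 39.8%, 16.7%, 26.4% and 41.2%.

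The H3K18ac split separated H3.3 more than H2AZ. Among members with H3K18ac, H3.3 was listed at 327 of 860 (38.02%, 34.8 to 41.3) in mock cells and at 82 (9.53%, 7.75 to 11.7) after EP400 siRNA. Among members without H3K18ac it was listed at 95 of 476 (19.96%, 16.6 to 23.8) and at 86 (18.1%, 14.9 to 21.8). The difference between the classes, with H3K18ac minus without, was 18.1 percentage points in mock cells (interval 13.1 to 22.8) and -8.53 points after EP400 siRNA (-12.65 to -4.68), so the order of the classes was opposite in the 2 conditions. For H2AZ the shares were 15.6% with and 13.4% without H3K18ac in mock cells, a difference of 2.14 points whose interval (-1.92 to 5.92) includes 0. After EP400 siRNA they were 1.98% and 3.36%.

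**Figure D1:**
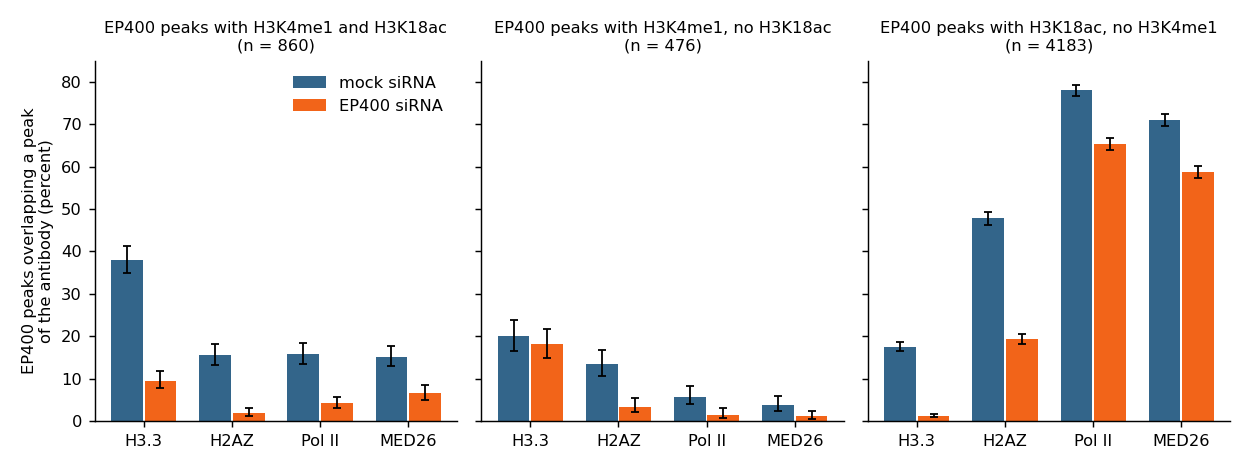
Percent of EP400 peaks that overlap a listed peak of each protein after mock siRNA (blue) and EP400 siRNA (orange), in 3 classes of EP400 peaks, with Wilson 95% intervals. In the class with H3K4me1 and no H3K18ac the H3.3 bars are 19.96% and 18.1%, and in the class with H3K18ac and no H3K4me1 Pol II and MED26 stand above 58% in both conditions.

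The near-equal H3.3 totals in members without H3K18ac came from different members. Of the 95 with H3.3 in mock cells, 9 were also listed after EP400 siRNA, 86 were listed in mock cells only and 77 after EP400 siRNA only. With H3K18ac, 28 were listed in both conditions, 299 in mock cells only and 54 after EP400 siRNA only. Over all members 91.2% of those with H3.3 in mock cells were not listed after EP400 siRNA, beside 92.5% over all EP400 peaks with H3.3. The opposite direction differed more: 131 of 914 members without H3.3 in mock cells (14.3%) were listed after EP400 siRNA, beside 3.4% over all EP400 peaks. The share was 20.2% in members without H3K18ac and 10.1% in members with it.

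The other 3 proteins were seldom listed after EP400 siRNA where they had not been in mock cells. This was so for 6 members with H2AZ (0.527%, beside 0.926% over all EP400 peaks), for 0 with Pol II (beside 0.201%) and for 8 with MED26 (0.673%, beside 1.22%). All 43 members with Pol II after EP400 siRNA thus had Pol II in mock cells.

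Pol II and Mediator had lower shares at the members than at EP400 peaks with H3K18ac and no H3K4me1. Pol II was listed at 15.8% (13.5 to 18.4) of members with H3K18ac and 5.67% of members without in mock cells, and at 4.19% and 1.47% after EP400 siRNA. MED26 was listed at 15.1% and 3.78%, and at 6.51% and 1.05%. At the 4183 EP400 peaks with H3K18ac and no H3K4me1, Pol II stood at 78.05% (76.8 to 79.3) and 65.4% and MED26 at 71.1% and 58.8%. H3.3 had the other order: 17.5% and 1.15% at those peaks.

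Of 163 members with Pol II in mock cells, 120 (73.6%) were not listed after EP400 siRNA, beside 24.5% of all EP400 peaks with Pol II. The corresponding values for MED26 were 95 of 148 (64.2%, beside 24.2%) and for H2AZ 171 of 198 (86.4%, beside 66.6%). H3K4me1 peaks without EP400 also seldom stayed listed. Of H3K4me1 peaks with Pol II in mock cells, 21.9% of those with EP400 and 13.5% of those without were also listed after EP400 siRNA. For MED26 these shares were 42.2% and 29.6%, and for H2AZ 13.9% and 14.6%. Wide peaks stayed listed more often. Pol II peaks over the members had a median width of 1400 bp, beside 1600 bp at EP400 peaks with H3K18ac and no H3K4me1. Among Pol II peaks of 1000 bp or more, 38 of 100 members stayed listed (interval 29.1% to 47.8%) and 86.7% (85.4 to 87.9) of 2874 EP400 peaks with H3K18ac alone. For MED26 peaks of that width the shares were 53.7% (38.75 to 67.9) of 41 and 86.9% of 1486. Away from gene ends, Pol II stayed listed at 21.9% of 114 members and at 73.4% of 757 peaks with H3K18ac alone. At gene ends it did at 36.7% of 49 and 86.6% of 2508. For H3.3 the order was the other way, with 8.77% (6.43 to 11.85) of members and 2.32% (1.45 to 3.68) of peaks with H3K18ac alone listed in both conditions. Where H3.3 was not listed in mock cells, it was listed after EP400 siRNA at 14.3% of members and 0.899% of peaks with H3K18ac alone. The higher H3.3 share at members after EP400 siRNA was thus not limited to those with H3.3 in mock cells.

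**Figure D2:**
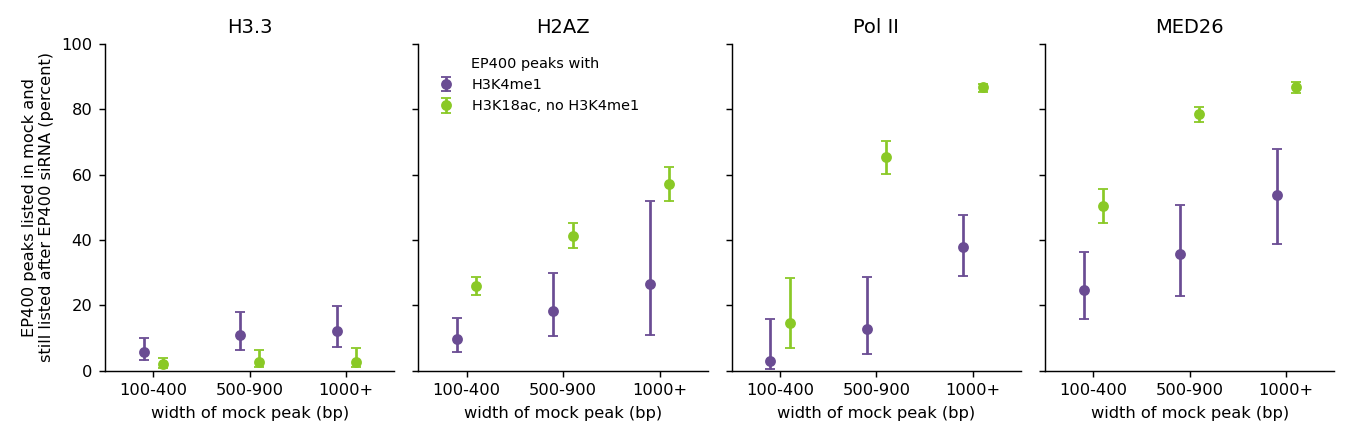
Percent of EP400 peaks with a listed protein in mock cells that were still listed after EP400 siRNA, by width of the mock peak of that protein, for EP400 peaks with H3K4me1 (purple) and with H3K18ac but no H3K4me1 (green), with Wilson 95% intervals. For Pol II peaks of 1000 bp or more the points are 38% and 86.7%, and for H3.3 the purple points lie above the green ones.

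The proteins were listed together unevenly. In mock cells 707 members (52.9%) carried none of the 4, 425 carried 1, 123 carried 2, 64 carried 3 and 17 carried all 4. The commonest single listing was H3.3 alone, at 257 members, followed by H2AZ alone at 125. All 17 members with all 4 had H3K18ac, and after EP400 siRNA no member carried all 4. Among members with H3K18ac, Pol II was listed at 27.2% of those with H3.3 and 8.82% of those without H3.3. MED26 was listed at 26.6% and 8.07% by the same split. H2AZ was listed at 12.8% of members with H3.3 and 17.3% of those without.

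Distance from the EP400 centre showed different shapes. Around members with H3K18ac, all 4 proteins were most often listed at the centre in mock cells. The share was 35.8% for H3.3 and 14.1% for H2AZ at the centre, and 15.1% and 3.95% at 1000 bp on either side. Pol II was at 15.3% in the centre and 10.6% at 1000 bp. Around members without H3K18ac, H3.3 was highest at the centre in both conditions, at 18.3% in mock cells and 15.5% after EP400 siRNA, and stood at 9.45% and 5.88% at 1000 bp. Pol II and MED26 were listed less near the centre than 1000 bp away. Pol II was listed at 5.67% in the centre and at 10.3% 1000 bp away in mock cells. After EP400 siRNA these values were 1.26% and 5.57%. MED26 was at 3.36% and 6.83% in mock cells and at 0.840% and 5.15% after EP400 siRNA. H3K18ac itself, absent at the centre by definition, was listed at 16.8% of points 1100 bp from the centre. The median distance from these members to an H3K18ac peak was 951 bp, and 312 of 476 (65.5%) lay within 2000 bp of one.

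**Figure D3:**
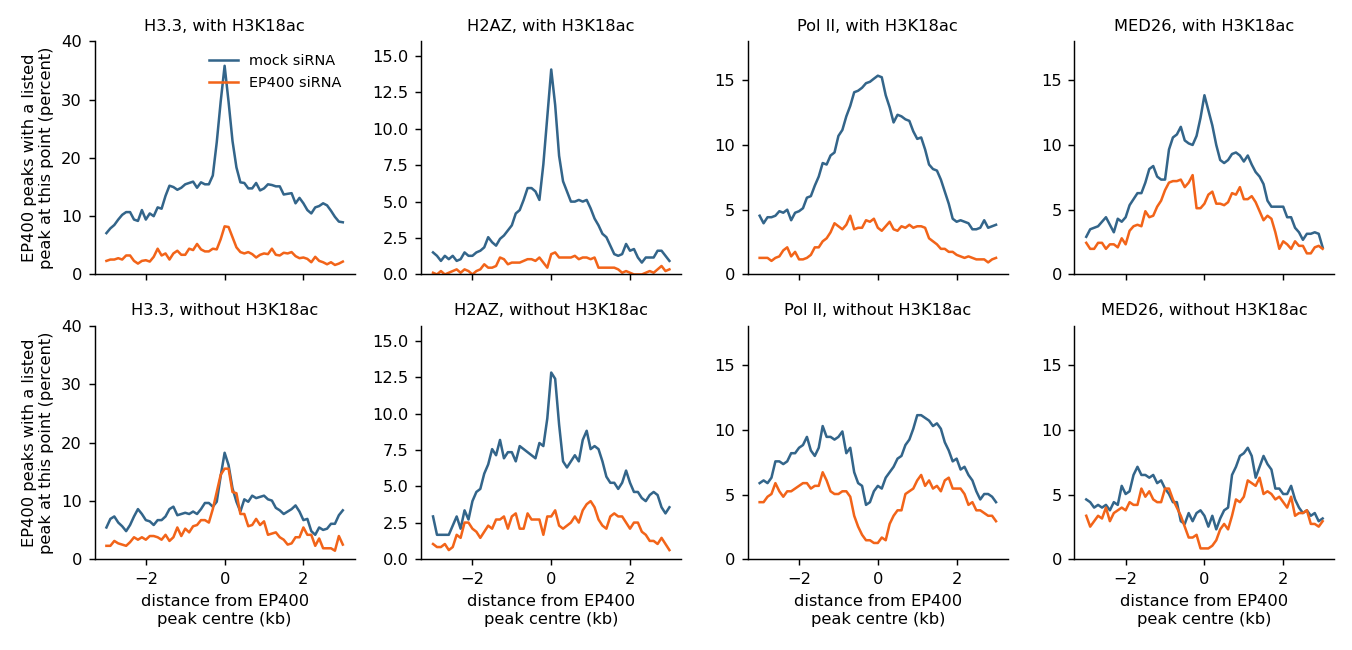
Percent of members with a listed peak at each point from 3 kb before to 3 kb after the centre of the EP400 peak, in mock cells (blue) and after EP400 siRNA (orange), for members with H3K18ac (upper row) and without (lower row). In the lower row Pol II stands at 5.67% in the centre and 10.3% at 1000 bp in mock cells, whereas H3.3 is highest in the centre in both conditions.

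Members away from an H3K18ac peak by 10000 bp or more numbered 87. H3.3 was listed at 9 of these in mock cells and 15 after EP400 siRNA, and H2AZ at 18 and 4. In the 312 within 2000 bp, H3.3 was listed at 68 and 57 and H2AZ at 39 and 12.

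The width of the H3K4me1 peak differed with the H3K18ac split and, in members without H3K18ac, with H3.3 after EP400 siRNA. H3K4me1 peaks under members had a median width of 400 bp, 500 bp with H3K18ac and 300 bp without. H3K18ac was found at 42.6% of members in H3K4me1 peaks of 100 bp and at 87.8% of those in peaks of 1000 bp or more. Among members without H3K18ac, H3.3 after EP400 siRNA was listed at 11.03% of 136 in 100 bp peaks, 13.8% of 159 in peaks of 200 to 300 bp, 24.8% of 153 in peaks of 400 to 900 bp and 39.3% of 28 in wider ones. In mock cells the same classes stood at 22.8%, 19.5%, 17.6% and 21.4%. H3.3 was therefore more often listed in mock cells below 400 bp and more often after EP400 siRNA from 400 bp on. Members with H3K18ac showed lower H3.3 shares after EP400 siRNA in all 4 width classes, from 36.6% to 40.6% in mock cells and from 7.43% to 11.9% after EP400 siRNA.

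**Figure D4:**
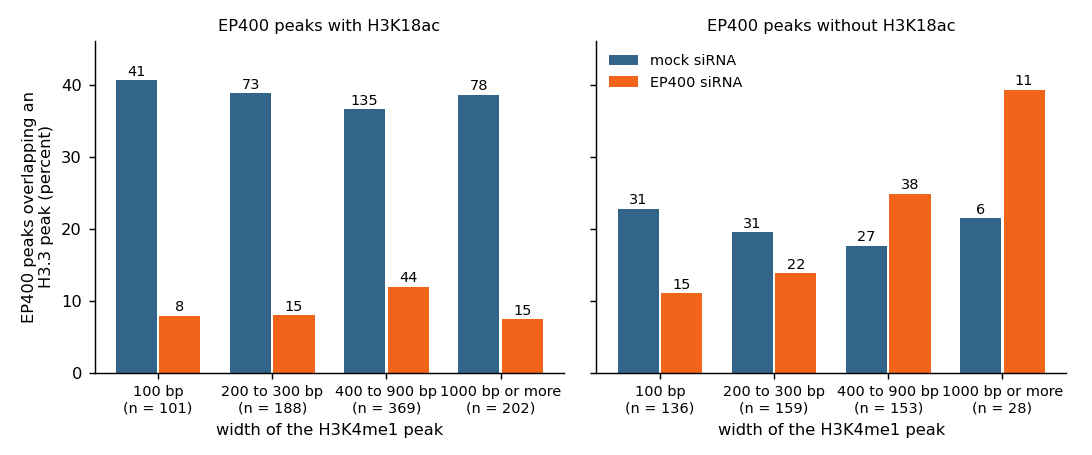
Percent of members that overlap an H3.3 peak in mock cells (blue) and after EP400 siRNA (orange), by width of the H3K4me1 peak, with the number of members above each bar and no error bar because each condition had 1 library. In members without H3K18ac the orange bar is lower than the blue one at 100 bp (15 and 31 members) and higher at 400 to 900 bp (38 and 27).

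Wider EP400 peaks had higher shares of H3.3 and Pol II after EP400 siRNA. Of 658 members of 50 bp H3.3 was listed at 30.5% in mock cells and 9.57% after EP400 siRNA, and of 231 members of 150 bp or more at 34.2% and 20.8%. Pol II was listed at 10.2% and 1.67% of the narrow members and at 17.7% and 8.23% of the wide ones. The widest members were 500 bp long. Of these, 1 overlapped the locus of CCT8, a subunit of the cytosolic chaperonin (chr21:30444501-30445000), and 1 a locus of 35 genes on chromosome 1 (chr1:145082801-145083300), where duplicated genes share sequence. Both lacked H3K18ac and were listed for H3.3 after EP400 siRNA only.

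The other members of 350 bp or more differed in what they carried. A 400 bp member lay 5.75 kb from MIR5188 (chr12:125405951-125406350) and had H3.3 in mock cells only, without H3K18ac. The 350 bp member inside the locus of FRMD6, a scaffold of the Hippo pathway (chr14:52047401-52047750), showed the same, and FRMD6 RNA was 6.03 FPKM in mock and 13.5 FPKM in knockdown cells. A member of the locus of MAFK, a small Maf transcription factor, and TMEM184A (chr7:1594651-1595000) had H3K18ac, H3.3 in mock cells only, and Pol II and MED26 in both conditions. MAFK stood at 117.6 and 58.25 FPKM. A member 26.3 kb from THSD7A (chr7:11383451-11383800) had H2AZ in mock cells only.

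The widest H3K4me1 peaks under members measured 3900 bp inside SHB, an adaptor protein gene, 3700 bp at LINC01119, 3100 bp beside LFNG and 3000 bp inside PRKCH, a protein kinase C gene. All 4 had H3K18ac. H3.3 was listed at the first 3 in mock cells and at none after EP400 siRNA, and the PRKCH member (chr14:61994301-61994400) had none of the proteins in either condition. MED26 was listed at the LFNG member (chr7:2570301-2570400) in both conditions and Pol II in mock cells only.

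H3K4me1 peaks with and without EP400 were compared to show what the other H3K4me1 sites carry. The 1315 with EP400 were wider (median 400 bp against 200 bp) and 69.2% of them carried H3K18ac, against 52.1% of 48350 without EP400. By width, H3K18ac was at 40.9% and 34.3% of 100 bp peaks, 77.6% and 77.9% of peaks of 400 to 900 bp and 95.4% and 96.3% of wider ones. H3.3 after EP400 siRNA was listed at 28.0% of 514 peaks of 400 to 900 bp with EP400 and 11.2% of 10585 without. In mock cells the values were 48.6% and 42.7%. The share listed in both conditions, of those with H3.3 in mock cells, was 28.0% with EP400 and 12.0% without in this width class. In peaks of 100 bp it was 5.80% and 4.24%, in peaks of 200 to 300 bp 8.403% and 6.95%, and in peaks of 1000 bp or more 30.8% and 17.7%. H3.3 in mock cells was at 67.3% of the widest peaks with EP400 and 69.85% of those without. Pol II was listed at 16.7% and 13.3% of the peaks of 400 to 900 bp in mock cells and at 3.31% and 1.69% after EP400 siRNA. With the H3K18ac classes pooled, both proteins thus had lower shares after EP400 siRNA at sites with and without EP400. Without H3K18ac, H3.3 at peaks of 400 to 900 bp was at 30.4% and 39.1% of 115 with EP400 (mock and EP400 siRNA). Without EP400 the values were 33.4% and 18.2%. In wider peaks of this kind H3.3 was at 5 and 8 of 10 with EP400 and 42 and 17 of 66 without. In narrower ones with EP400 it was lower after EP400 siRNA (22.9% and 10% at 100 bp, 23.6% and 14.3% at 200 to 300 bp).

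Most members lay away from gene ends. A gene end here means within 2 kb of the first or last base of a locus, a cluster of overlapping transcripts without strand. Of the members 191 (14.3%, 12.5 to 16.3) were at a gene end, 599 (44.8%) inside a locus and 546 (40.9%) between loci, at a median of 23.03 kb from the nearest one. Over all EP400 peaks the 3 shares were 28.7%, 38.1% and 33.3%. For EP400 peaks with neither H3K4me1 nor H3K18ac they were 18.4%, 43.1% and 38.6%. Members without H3K18ac were at a gene end in 22.7% (19.15 to 26.7) of cases, and those with it in 9.65% (7.85 to 11.8). EP400 peaks with H3K18ac alone were at one in 64.1%. At gene ends, members with H3K18ac carried H3.3 in 57.8% of cases in mock cells and 8.43% after EP400 siRNA, and Pol II in 41.0% and 14.5%. Away from gene ends, H3.3 at members without H3K18ac stood at 16.03% (12.6 to 20.1) in mock cells and 18.5% (14.9 to 22.8) after EP400 siRNA, and MED26 at 7 and 0 of 368. That 0 allows a share of up to 0.815%, taken as 3 counts of 368 and not as a Wilson limit.

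The 8 widest of the 17 members with all 4 proteins in mock cells lay on chromosomes 7, 8, 17, 19 and 22. The widest (chr17:79303201-79303450) was at the end of a gene without a symbol in the name table, in an H3K4me1 peak of 2000 bp, and kept Pol II and MED26 after EP400 siRNA. A member of 250 bp (chr7:6099051-6099300) lay 0.191 kb from the locus of AIMP2, ANKRD61 and EIF2AK1 and kept H2AZ, Pol II and MED26. A second member, 22.7 kb from that locus (chr7:6121551-6121750), kept H3.3, Pol II and MED26. A member 9.58 kb from IER2, an immediate-early gene (chr19:13275301-13275500), kept MED26 alone, and IER2 RNA was 69.7 and 70.1 FPKM. At LFNG, which encodes a Notch-modifying glycosyltransferase, 4 members lay nearest and all had H3K18ac. The widest (chr7:2563001-2563350, 350 bp) carried H3.3, Pol II and MED26 in mock cells and Pol II and MED26 after EP400 siRNA. LFNG RNA was 223 and 89.1 FPKM.

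Members with H3.3 in both conditions included chr13:51165001-51165250, which lay 62.2 kb from the DLEU1 locus, and 1 inside the locus of the endosomal adaptor gene RUSC2 (chr9:35510551-35510750). Another lay 0.390 kb from LNCATV (chr1:235092501-235092700). These named members were among the widest of 37 and had H3K18ac, which 9 of the 37 lacked. Apart from the 500 bp members, the widest with H3.3 after EP400 siRNA only lay inside LINGO2, a neuronal leucine-rich repeat gene (chr9:28213151-28213450), and inside GNA12, which encodes a G protein alpha subunit (chr7:2795351-2795650).

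Members were unevenly spread over chromosomes. They made up 12.1% of EP400 peaks on chromosome 22 and 4.39% on chromosome 6, the extremes among 20 chromosomes with 20 or more members. Chromosome 8 held 111 and chromosome 14 held 101. With H3K18ac, H3.3 was listed at fewer members after EP400 siRNA on 19 of these 20 chromosomes. Without H3K18ac it was listed at fewer on 10, more on 8 and as many on 2. The EP400 siRNA list of H3.3 held 1.73 times as many peaks as the mock list on chromosome 4, 1.10 times on chromosome 18 and 1.03 times on chromosome 14, but 0.115 times on chromosome 19. Outside chromosomes 8, 14 and 22, H3.3 at members without H3K18ac was listed at 20.2% in mock cells and 15.7% after EP400 siRNA, and on those 3 chromosomes at 23 and 30 of 120. The 3 did not share a direction, with 7 and 13 on chromosome 8, 6 and 13 on chromosome 14 and 10 and 4 on chromosome 22. Chromosome 7, among the others, had 3 and 10. U2OS chromosome copy number was not tested.

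Members clustered along chromosomes: 53 windows of 1 Mb held 5 or more and 371 members in all, and 529 members (39.6%) had another EP400 peak within 5 kb, beside 31.6% of EP400 peaks without H3K4me1. RAD51B, a homologous recombination gene on chromosome 14, had the most, with 13 members inside its locus of 776 kb, 10 of them with H3K18ac. H3.3 was listed at 0 of these in mock cells and 4 after EP400 siRNA, and Pol II and MED26 at none. RAD51B RNA was 1.41 and 3.27 FPKM. PCDH7, a protocadherin gene, was nearest to 9 members, 1 with H3K18ac, with H3.3 at 0 and 2, and its RNA was 3.05 and 14.5 FPKM. EXT1, a heparan sulfate polymerase gene, was nearest to 7, with H3.3 at 2 and 0 and RNA of 27.3 and 63.7 FPKM. ASAP1, an Arf GTPase-activating protein gene, was also nearest to 7, and the locus of 35 genes on chromosome 1, NRP1, METTL4 and PTK2 to 6 each. Over these 8 loci Pol II was listed at no member in either condition.

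The nearest loci numbered 974, with 1441 genes, of which 750 had a mean of 1 FPKM or more and were analysed. These loci were long, with a median of 51.6 kb beside 22.4 kb over all 20850 loci, and 133 kb for the 79 loci nearest to 3 or more members. Of the 750 genes, 77 (10.3%) were 2-fold or more higher after EP400 siRNA, beside 6.11% of all 11671 genes analysed, and 145 (19.3%) were 2-fold or more lower, beside 22.9%. Their median log2 ratio on the log2(FPKM + 1) scale was -0.09 (rank interval -0.17 to 0.02), and that of all genes was -0.20. Scaling set the sign: the medians were 0.11 and 0 after median centring, and 0.62 and 0.48 after rescaling both libraries to equal sums (TPM). The higher and lower counts among the 750 were 113 and 104 on centring and 260 and 44 on rescaling. Over all genes they were 1260 and 1825, and 3700 and 696. Fewer cells of a type and less RNA per cell cannot be told apart in such bulk samples.

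Genes grouped by H3.3 at their nearest members had different ratios. The 261 genes with H3.3 in mock cells only had a median log2 ratio of -0.45 (-0.58 to -0.29), with 31.0% lower and 8.05% higher, beside 22.9% and 6.11% of all genes. After TPM rescaling the balance turned, from 21 higher and 81 lower to 59 and 22. The 86 genes with H3.3 after EP400 siRNA only had a median of 0.29 (0.17 to 0.48), with 6.98% lower and 19.8% higher, and after rescaling 44 were higher and 2 lower. They included every analysed gene of the chromosome 1 locus of 35 genes, whose 6 members had H3.3 at 0 in mock cells and 4 after EP400 siRNA. Genes of 1 locus share their members and are not independent, which the rank intervals and shares ignore. For genes with H3.3 in neither (362) the median was 0.07. On rescaling these medians were 0.24, 1.01 and 0.80, against 0.48 for all genes. The groups also differed in level, with a median mock FPKM of 14.8 for H3.3 in mock cells only and 4.47 for H3.3 after EP400 siRNA only, and over all genes the median ratio was lower at higher levels. Among genes with a mean of 5 to 20 FPKM the medians were -0.49 and 0.27 for these groups and -0.19 for all genes. At 20 FPKM or more they were -0.82, 0.39 (18 genes, interval -0.76 to 0.86) and -0.87, and the interval of the first group (-1.05 to -0.53) included the value of all genes. Among genes of 1 to 5 FPKM they were 0.08, 0.28 and 0.19. The 131 genes with Pol II at a member in mock cells had a median of -0.77 (-0.99 to -0.56), with 6 higher and 52 lower. After TPM rescaling the median was -0.07, with 19 higher and 18 lower. As deposited, those of 1 to 5 FPKM had a median of -0.70 (30 genes, -1.07 to -0.26) where all genes of that level stood at 0.19. The part of expression level in the remaining differences was not tested.

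By H3K18ac, genes nearest only to members with the mark (423) had a median of -0.23, those nearest only to members without it (234) of 0.01, and those nearest to both kinds (93) of 0.19. The sign of the first group depended on scaling: the 3 medians were -0.03, 0.21 and 0.39 on centring and 0.44, 0.71 and 0.91 on TPM rescaling, where all genes stood at 0.48. In the last group 16 (17.2%, beside 6.11% of all genes) were higher and 7 (7.53%, beside 22.9%) lower, and on rescaling 40 were higher and 1 lower. The chromosome 1 locus of 35 genes, with H3K18ac at 1 of its 6 members, belonged to this group, and its genes are not independent.

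**Figure D5:**
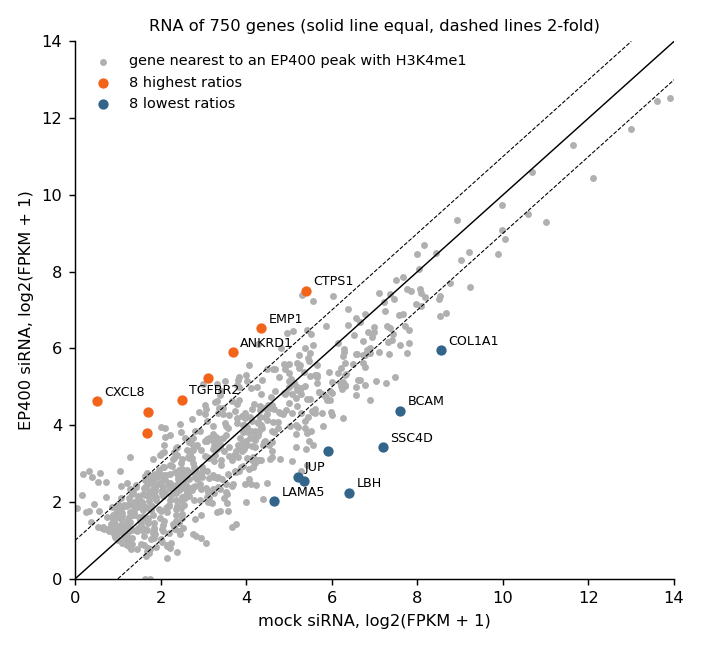
RNA of the 750 genes nearest to a member, each point 1 gene, with mock cells on the horizontal axis and EP400 siRNA on the vertical axis, both as log2(FPKM + 1). Coloured points are the 8 highest and the 8 lowest ratios among genes with a mean of 5 FPKM or more, from CXCL8 (log2 ratio 4.10) to LBH (-4.16).

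The 8 highest ratios among nearest genes with a mean of 5 FPKM or more were led by CXCL8, the neutrophil chemokine interleukin 8, at 0.435 FPKM in mock cells (the authors' limits 0.0316 to 0.839) and 23.7 FPKM (2.89 to 44.5) after EP400 siRNA. It lay 14.5 kb from the nearest of 2 members, 1 with H3K18ac, and H2AZ was listed at 1 member in each condition. TGFBR2, the type II TGF-beta receptor, held 1 member with none of the 4 proteins and was at 4.62 and 24.5 FPKM. ANKRD1 was at 11.9 and 59.0 FPKM. EMP1, a membrane protein gene, was at 19.5 and 91.3 FPKM, with a member 12.4 kb away, and CTPS1, which encodes CTP synthase, at 41.1 and 180 FPKM. CASC8, DLGAP1-AS2 and PDE4DIP completed the 8, with log2 ratios of 2.13, 2.12 and 2.64. PDE4DIP belongs to the locus of 35 genes, so its value is uncertain.

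The 8 lowest were led by LBH, a transcriptional cofactor gene, at 83.8 FPKM (2.30 to 165) and 3.75 FPKM (0.424 to 7.07), with 1 member 15.2 kb away. SSC4D was at 147 and 9.74 FPKM, BCAM at 193 and 19.8 FPKM, and ARVCF, a catenin gene, at 39.9 and 4.85 FPKM. LAMA5, a laminin chain, was at 24.2 and 3.07 FPKM. COL1A1, the type I collagen alpha 1 chain, was at 376 and 60.8 FPKM, and its member, without H3K18ac, had H3.3 in mock cells only. WBP1 and JUP, which encodes junction plakoglobin, had log2 ratios of -2.56 and -2.55. All 16 genes had the same sign after median centring and after TPM rescaling. The authors' limits overlapped between conditions for 15 of the 16, all but CXCL8.

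Gene lists chosen with earlier results known were unevenly represented. Of all 26243 genes of the table, 5.49% had a locus nearest to a member. Of 24 extracellular matrix genes 8 (33.3%) did, 6 of 21 in TGF-beta and BMP signalling (28.6%), 5 of 26 in the actin cytoskeleton and adhesion (19.2%), and 4 of 21 Pol II and Mediator genes (19.0%). For NF-kB and cytokine genes it was 4 of 22, for receptor tyrosine kinase signalling 4 of 23, for AP-1 and immediate-early genes 3 of 20 and for the Hippo pathway 2 of 15. No gene was nearest to a member among 18 of the TIP60-EP400 complex, 15 histone variants and chaperones, 16 H3K4 and H3K18 enzymes, 13 osteoblast genes or the 25 ribosomal protein genes of the list. That list holds only a portion of the family. Outside it RPS29, RPS26, RPLP1 and RPL9 were nearest to a member, and these genes were named after their values were seen. RPS29 had a member centred at -941 bp from its start, with H2AZ listed in both conditions and H3.3 after EP400 siRNA only. Locus length also differed between lists, with a median of 84.9 kb for the matrix list, 77.7 kb for the actin list and 4.65 kb for the ribosomal list. The order was not the same throughout. The NF-kB (7.41 kb) and AP-1 (5.14 kb) lists had genes nearest to a member. The H3K4 and H3K18 enzyme (38.9 kb), histone variant (34.8 kb) and TIP60-EP400 (25.2 kb) lists had none. The lists with none held 13 to 25 genes each, too few to tell any single one apart from the overall share of 5.49%. The part of locus length was not tested.

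Among the 8 matrix genes 2 were 2-fold or more higher and 2 lower after EP400 siRNA, with a median log2 ratio of -0.38, beside -0.38 over all 22 genes of the list analysed. TGFBI, a TGF-beta-induced matrix protein with a member 23.7 kb away, was at 45.96 and 151 FPKM, and COL6A3, a collagen VI chain named after its value was seen, at 9.70 and 28.9 FPKM. COL1A1 and COL5A1, a fibrillar collagen with 4 members nearest, all with H3K18ac, were lower, and COL5A1 was at 42.15 and 6.84 FPKM. The collagens thus differed in direction as deposited, and these 4 signs held on centring and TPM rescaling. LOXL2, a collagen cross-linking enzyme, was at 94.9 and 57.1 FPKM, and its log2 ratio turned from -0.72 to 0.04 on rescaling.

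In TGF-beta and BMP signalling, 5 genes near members were analysed, with 1 higher and 2 lower, beside 2 and 5 of 18 over the whole list. The receptor gene TGFBR2 was higher. BMP4, a ligand named after its value was seen, was at 117.5 and 24.3 FPKM, and SMAD6, an inhibitory SMAD with 3 members nearest, at 12.5 and 1.71 FPKM. The ligand gene TGFB2 was at 5.89 and 3.18 FPKM, within 2-fold. On rescaling 2 were higher and 2 lower.

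Of the 5 actin and adhesion genes, 2 were lower, beside 8 of 25 over the whole list. These were ACTB at 8214 and 3348 FPKM and TPM1, a tropomyosin, at 108 and 44.8 FPKM. On TPM rescaling neither was past 2-fold (log2 ratios -0.52 and -0.49). ACTB had 3 members nearest, 2 with H3K18ac, with H3.3 at 3 in mock cells and 1 after EP400 siRNA, and Pol II at 2 and 1. ITGB1, the beta 1 integrin, had 5 members nearest, with H3.3 at 0 and 1, and was at 40.3 and 63.9 FPKM.

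Of 3 NF-kB and cytokine genes analysed 2 were higher and 1 lower. These were CXCL8, TNFAIP3, an inhibitor of NF-kB (1.06 and 6.04 FPKM), and LIF, a cytokine of the IL-6 family (56.1 and 26.1 FPKM), whose log2 ratio was -1.07 as deposited and -0.32 on rescaling. EGFR (1.43 and 4.07 FPKM) and DUSP5, an ERK phosphatase (9.02 and 32.8 FPKM), were the 2 of the receptor tyrosine kinase list analysed, and both were higher. All genes of these lists had similar counts, with 9 higher and 2 lower of 18 for NF-kB and 9 and 2 of 17 for the kinase list. Of 3 immediate-early genes analysed 1 was higher, beside 1 of 16 over the whole list. That 1 was MYC, the growth-promoting transcription factor gene. BHLHE40, a circadian repressor gene, was at 13.3 and 24.3 FPKM, and on centring (log2 ratio 1.02) and on TPM rescaling it was past 2-fold too. MYC, with 3 members nearest and H3.3 at 0 in mock cells and 2 after EP400 siRNA, was at 64.4 and 164 FPKM. Of the 4 Pol II and Mediator genes none passed 2-fold as deposited: POLR2B was at 12.3 and 19.7 FPKM, MED15 at 89.5 and 47.2, MED13 at 3.69 and 5.61 and MED6 at 8.28 and 12.8. On rescaling 3 of these 4 were higher.

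At the threshold of the rule, 232 members lay only partly inside an H3K4me1 peak and 555 EP400 peaks lay outside but within 100 bp of one. H3K18ac was at 53.0% and 48.1% of these, H3.3 at 29.7% and 23.4% in mock cells and at 17.7% and 7.21% after EP400 siRNA. Pol II was at 17.2% and 12.4% in mock cells and at 8.62% and 4.14% after EP400 siRNA.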

How the data were processed

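H3.3, H2AZ, Pol II, MED26, H3K18ac, H3K4me1 and EP400 binding and RNA were measured in U2OS cells (19 samples). The deposited peak lists hold hg19 coordinates only, with no score. Tools used were TopHat2 2.0.8, Cuffdiff 2.0.2 and Bowtie 0.12.9, per the submitters' processing notes. What called the peaks, at which threshold and against which control, was not given in the sources used here. For RNA, the deposited FPKM values, with their limits, were computed by the authors with Cuffdiff, per the file headers and the processing notes.

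Overlap meant 1 bp or more. Log2 ratios are log2((EP400 siRNA FPKM + 1)/(mock FPKM + 1)) for genes averaging at least 1 FPKM, without transcripts shorter than 200 nt, and 2-fold was called. Loci are Cuffdiff clusters without strand, and 17.8% of them hold more than 1 gene. Differences between shares have Newcombe intervals, and medians binomial rank intervals. Overlaps, medians and intervals were tested on simulated data. Python 3.11.15, pandas 2.3.3, numpy 2.4.6, scipy 1.17.1 and matplotlib 3.10.9 were used. Other overlap distances, widths, list lengths, gene-end sizes, pseudocounts, filters and scalings were tried.

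Members and gene lists were chosen with earlier results of these data known. Named members were the widest EP400 and H3K4me1 peaks, those with all 4 proteins and those with H3.3 in both conditions or after EP400 siRNA only. Named genes were the loci with the most members, the 8 highest and 8 lowest log2 ratios at a mean of 5 FPKM or more, and up to 4 genes of each list. Promoters came from a RefSeq table (GRCh38.p14), and no coordinates were converted between builds.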

Additional observations from a re-analysis of the deposited data

How the results depend on the processing

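Each antibody and condition had 1 library, so no value has a replicate error. No paired analysis was possible because no result comes from a test and the numbered EP400 immunoprecipitations and inputs came as 1 list. Of 111 alternative values, 72 stayed within the interval of the reported value, 35 lay outside it and 4 changed sign. With partner peaks at least as wide as their list's median, H3.3 in mock cells stood at 27.75% of members and 33.29% of those with H3K18ac, H2AZ at 12.1% and 1.183% (mock and EP400 siRNA), Pol II in mock cells at 10.01% and MED26 at 9.19%. Taking EP400 peaks within 500 bp of H3K4me1 gave 2790 members, 54.55% with H3K18ac. H3.3 was then at 24.8% and 9.677%, at 30.95% and 7.03% of those with H3K18ac and, after EP400 siRNA, at 12.85% of those without. H2AZ after EP400 siRNA was at 3.584%, Pol II at 16.56% and 7.133% and MED26 at 15.09% and 8.387%. With EP400 peaks wider than the median, H3.3 after EP400 siRNA was at 15.49% of members and 25.32% of those without H3K18ac, where mock cells had 19.74%. Pol II was at 14.16% and 4.72% and MED26 at 14.45% and 6.637%. With lists brought to equal length by width, H3.3 in mock cells was at 26.2%, 32.09% with and 15.55% without H3K18ac, and H2AZ at 10.33%. Away from gene ends, H3.3 in mock cells was at 16.03% without H3K18ac, H2AZ after EP400 siRNA at 1.572% and Pol II at 9.956% and 2.183%. Gene ends of 1 kb held 7.635% of members and gene ends of 5 kb 24.78%. The median log2 ratio of nearest genes was -0.3369 at a mean FPKM of 5 or more. It was 0.0025 without a filter, 0.1074 after median centring, 0.6227 after TPM rescaling and 0.0100 with the nearest locus that had a gene analysed. Leaving out chromosomes 8, 14 and 22 (0 values outside the interval) and using loci of 1 gene (median -0.0957) were chosen after seeing the data.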
